A study of Mus musculus with 47 samples.

Results

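The 44 genes described here encode the machinery that copies chromosomal DNA, and they were taken as a list of gene symbols: genes that license origins, the replicative helicase, polymerases and primase, the sliding clamp and its loader, single-strand binding, flap removal and ligation, chromatin assembly, and nucleotide supply. Of these, 43 were named on the arrays by 94 probe sets annotated to a single member symbol, and Chaf1a was not named. The brightest probe set over all arrays stood for a gene, and all 43 were among the 13949 of 18194 named genes that passed the filter on dim values. Levels are log2 of the deposited intensity, so a difference of 1 is 2-fold.

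RNA of 2000 purified adult bone marrow cells per sample was amplified and hybridised to 47 Affymetrix mouse arrays of C57Bl6 mice in 17 groups, with no treatment or genotype named in the labels. The names are spelled here as in the labels, which explain none of them and give no sort, age or sex. In common use LTHSC and STHSC are long-term and short-term stem cells (2 arrays each) and LMPP are lymphoid-primed progenitors (5). The megakaryocyte and erythroid groups are MkE (4), PreCFUE (3), CFUE (3), ProE (3) and MkP (3). The myeloid groups are GMP (3) and GM (2). The lymphoid groups start with CLP (2). ProB (2), PreB (4) and IgM+SP (2) bear names of the B lineage, ETP (3) and CD4 (2) of the T lineage, and NKmature (2) that of NK cells. Arrays of a group are titled biological replicates, but no animal, pool or day is named, and the p-values therefore cover the spread between arrays alone, part of which may be technical.

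Marker lists were set against the group names. The 7 stem cell markers were all over the filter level in LTHSC, where their summed log2 level was 60.4 to 63.7, against 26.1 to 48.4 elsewhere, and the 9 named erythroid markers summed to 90.6 to 91.3 in ProE, against 34.3 to 76.8 elsewhere. On the 2 arrays labelled ProB, 10 of 10 NK markers were over the filter level and summed to 86.5 to 88.1, against 104.7 to 106.1 in NKmature and 33.3 to 58.7 in the remaining groups, and 8 of 8 named T lineage markers were over it. The B lineage markers summed to 78.8 and 62.4 on the same arrays, against 76.6 and 74.6 in CLP. PreB had 97.8 to 111.9, IgM+SP 90.2 and 92.0, and no array of the remaining groups exceeded 52.4. These 2 arrays are called the arrays labelled ProB. In ETP the named T lineage markers summed to 32.9 to 34.2 with 6 of 8 over the filter level, no higher than in CLP (33.5 to 34.2) or LTHSC (33.6 to 36.1). In PreB, replicates 3 and 4 differed from 1 and 2: the granulocyte-monocyte markers (11 of 11 over the filter level) summed to 95.4 on both, against 51.2 and 68.9, and the log2 difference of the 3′ minus the 5′ control probe set of Actb, a sign of RNA quality, was 6.11 and 5.26, against 1.59 and 2.41. Both CLP arrays had the lowest upper quartiles of intensity (50.2 and 50.7) and the highest medians (16.9). The sex-linked transcripts Xist and Eif2s3y sorted the arrays into 3 classes (either transcript alone, or both), and 6 of the 16 comparisons below joined groups that share no class: CD4 with ETP, ProE with CFUE, GM with GMP, MkE with STHSC, and CLP with NKmature or with the arrays labelled ProB. There the class cannot be told apart from the group.

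Before a cell divides, the origin recognition complex, Cdc6 and Cdt1 load the Mcm2 to Mcm7 ring onto origins, and geminin (Gmnn) blocks reloading. In S phase Cdc45 and the GINS complex turn the ring into an active helicase, DNA polymerase alpha with primase starts each strand, and polymerases epsilon and delta extend it, with the ring-shaped clamp Pcna holding them on DNA. Many of these genes are transcribed as cells enter S phase, through E2F factors, and their transcripts are low in resting cells such as long-term stem cells and naive lymphocytes. Early erythroid progenitors are known to divide rapidly.

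Levels of all 43 genes differed among the 17 groups (limma's moderated F-test, adjusted p under 0.05), as did 90.3% of the genes tested. The largest group mean was found in ProE for 35 genes and in CFUE for 5, and 41 of 43 were highest in 1 of the 3 erythroid groups PreCFUE, CFUE and ProE. The exceptions were Pclaf, a Pcna-binding protein, highest in PreB, and Rfc2, a clamp loader subunit, highest in STHSC. The smallest group mean was in CD4 for 18 genes, in IgM+SP and in LTHSC for 10 each, in CLP for 4 and on the arrays labelled ProB for 1 (Cdt1). The share of all tested genes with their largest or smallest mean in each group was not counted. The difference between highest and lowest group mean ran from 1.89 to 7.31 with a median of 3.32, against a median of 2.11 over all genes tested. On arrays of pooled cells, fewer cells with a transcript and less transcript per cell cannot be told apart.

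To set the groups in order, each gene was centred on the mean of its 17 group means, and the 43 centred values of an array were averaged. This mean centred level was 1.58 ± 0.04 in ProE, 1.05 ± 0.06 in CFUE, 0.68 ± 0.13 in GMP and 0.67 ± 0.14 in PreCFUE (SD, n = 3 each). It was 0.50 ± 0.07 in GM and 0.21 ± 0.03 in NKmature (n = 2 each), 0.20 ± 0.33 in PreB (n = 4), 0.18 ± 0.09 in LMPP (n = 5) and 0.14 ± 0.12 in MkP (n = 3). STHSC stood at 0.03 ± 0.09 (n = 2), ETP at -0.13 ± 0.03 (n = 3) and MkE at -0.15 ± 0.14 (n = 4). The groups from NKmature down to MkP each overlapped the next in the order. ETP overlapped MkE, and GMP overlapped PreCFUE. The lowest values were -0.72 ± 0.11 in CLP, -0.76 ± 0.07 on the arrays labelled ProB, -0.90 ± 0.46 in LTHSC, -1.0 ± 0.06 in IgM+SP and -1.56 ± 0.05 in CD4 (n = 2 each). CLP overlapped the arrays labelled ProB, these overlapped LTHSC, and LTHSC overlapped IgM+SP, while CD4 lay below all others.

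Within LTHSC the arrays stood apart, at -1.22 and -0.58, and the lower array also had the lower sum of the 9 erythroid markers (46.9, against 58.5). Its upper quartile of intensity was lower too (58.3, against 69.8), and its median was higher (15.3, against 14.2). In PreB, replicates 1 and 2 stood at 0.57 and 0.37 and replicates 3 and 4, which differ in marker levels as described, at -0.03 and -0.12. The part of these marker and quality differences in the result was not tested. ProE, CFUE, GMP and PreCFUE held the first 4 places, and IgM+SP and CD4 the last 2, also after a further quantile normalization, after median centring and with the mean of all probe sets. Places between them moved: with quantile normalization NKmature moved to place 10 and MkP to place 5, and CLP lay at -0.25.

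**Figure D1:**
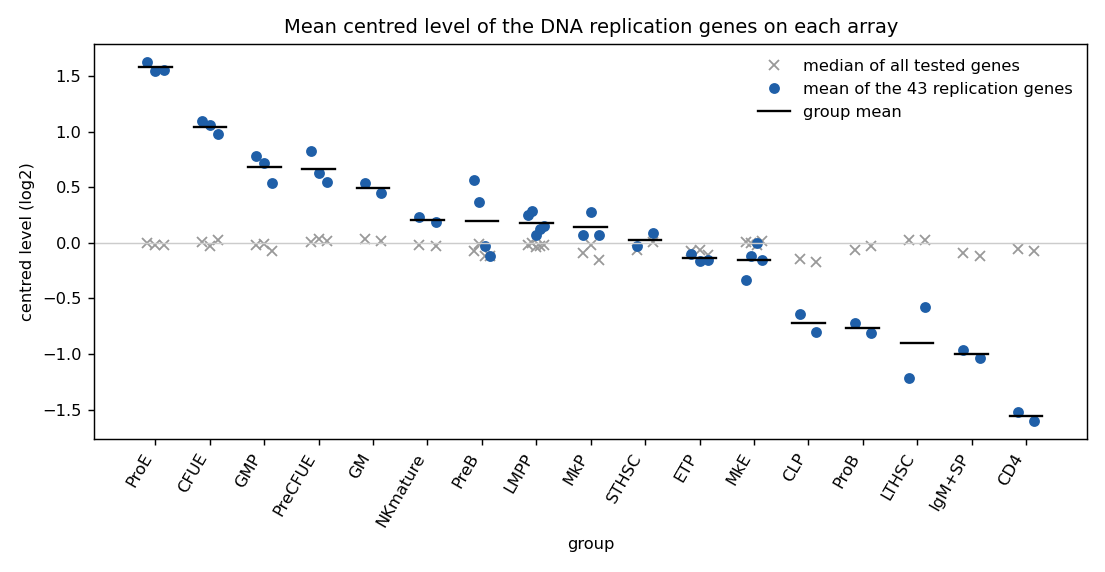
Mean centred log2 level of the 43 DNA replication genes on each array (blue points, vertical axis, log2), with group means as lines and the median of all tested genes as grey crosses, for the 17 groups from highest to lowest (horizontal axis). ProE lies between 1.55 and 1.63 and CD4 between -1.60 and -1.52, while the crosses stay near 0.

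**Figure D2:**
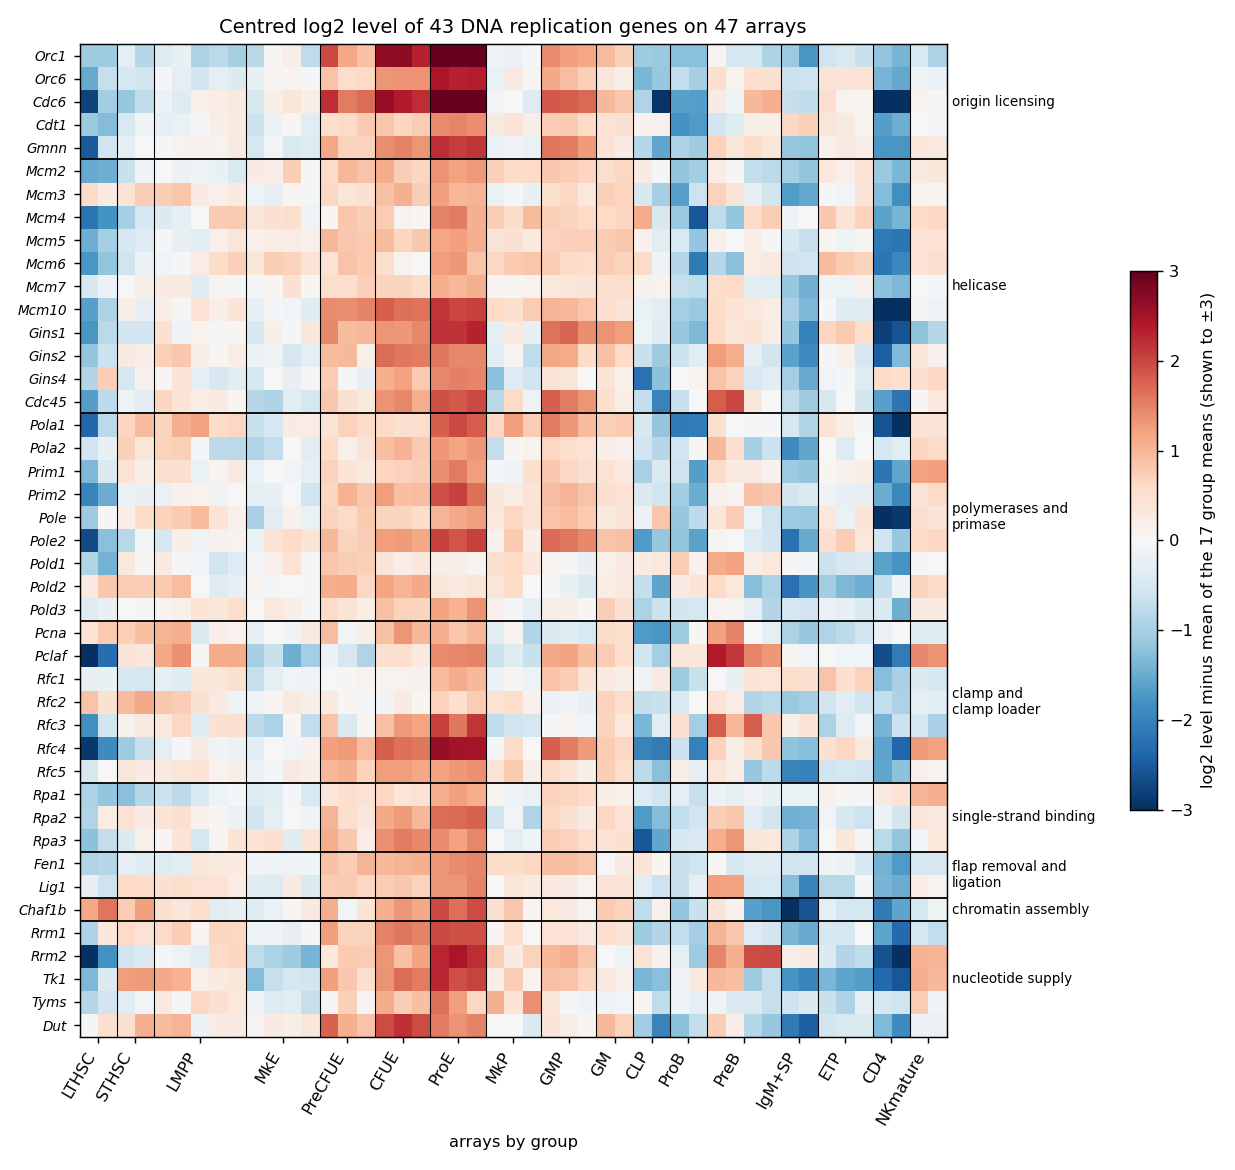
Centred log2 level of each of the 43 genes (rows, by function) on each of the 47 arrays (columns, by group). Red is above and blue below the mean of the gene's 17 group means, and colours are capped at 3. The red block in PreCFUE, CFUE and ProE runs through nearly every row, and the blue columns are LTHSC, CLP, the arrays labelled ProB, IgM+SP and CD4.

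The genes varied together to different degrees. Across the 17 group means, 28 of the 43 had a Pearson correlation over 0.8 with the mean of the remaining members, and the median was 0.86. These correlations are descriptions over groups that share arrays, scaling and a common normalization. The lowest were those of the polymerase delta subunits Pold2 (0.49) and Pold1 (0.56), the clamp loader subunits Rfc2 (0.51) and Rfc1 (0.58), Pcna (0.53), the single-strand binding subunit Rpa1 (0.55) and the GINS subunit Gins4 (0.56). By function, the mean of a group of genes followed the mean of the members outside it with a correlation of 0.94 to 0.97 for licensing, helicase, polymerases and primase, clamp and loader, flap removal and ligation, and nucleotide supply, of 0.86 for single-strand binding and of 0.67 for the chromatin assembly subunit Chaf1b.

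Because most of these genes moved together, the bases before their transcription starts were searched for the E2F motif TTCCCGC, for its variants TTGGCGC, also TTGCCGC, and also TTCGCGC, and for the letters CCAAT, on both strands. Matches can overlap each other, also between the E2F motifs and CCAAT, and each was counted. RefSeq start sites (GRCm38.p6) were given for 36 of the 44 genes. In the 250 bases before a start, 15 of the 36 (41.7%) held at least 1 E2F motif, against 9.01% of the 27025 genes in the table, and 22 (61.1%) held CCAAT, against 37.5%. The median GC content was 61.2% in the members' windows and 52.4% in all windows, and its part in the difference was not tested. A match is a run of letters and not a measured binding site.

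The upstream bases of the 5 genes with the widest range of group means among those with an E2F motif are shown to let their letters be compared, 5′ to 3′ in the direction of the gene, with E2F motifs on either strand in capitals. Cdc6, Orc1, Chaf1b and Rrm2 held 1 motif each and Pola1 held 3.
Cdc6, chr11:98907901-98908150, plus strand: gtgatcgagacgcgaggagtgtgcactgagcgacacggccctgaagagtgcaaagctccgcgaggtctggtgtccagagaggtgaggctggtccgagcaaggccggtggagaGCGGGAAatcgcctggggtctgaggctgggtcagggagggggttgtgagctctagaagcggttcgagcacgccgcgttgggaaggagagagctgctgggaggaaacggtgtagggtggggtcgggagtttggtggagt
Orc1, chr4:108579204-108579453, plus strand: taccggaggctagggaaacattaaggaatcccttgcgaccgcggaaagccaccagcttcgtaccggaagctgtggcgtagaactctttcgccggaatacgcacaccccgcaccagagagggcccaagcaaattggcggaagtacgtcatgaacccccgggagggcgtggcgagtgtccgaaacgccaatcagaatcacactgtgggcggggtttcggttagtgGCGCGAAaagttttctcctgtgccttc
Pola1, chrX:93632156-93632405, minus strand: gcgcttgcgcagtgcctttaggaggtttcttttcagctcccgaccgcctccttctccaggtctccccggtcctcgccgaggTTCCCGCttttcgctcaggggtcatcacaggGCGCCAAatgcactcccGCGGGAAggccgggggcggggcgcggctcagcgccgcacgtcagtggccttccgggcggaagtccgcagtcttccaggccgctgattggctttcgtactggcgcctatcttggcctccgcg
Chaf1b, chr16:93883651-93883900, plus strand: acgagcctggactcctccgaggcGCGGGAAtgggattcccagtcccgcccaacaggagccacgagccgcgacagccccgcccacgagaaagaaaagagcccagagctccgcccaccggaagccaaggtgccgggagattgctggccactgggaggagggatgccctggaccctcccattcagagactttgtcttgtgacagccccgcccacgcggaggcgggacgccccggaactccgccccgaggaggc
Rrm2, chr12:24708004-24708253, plus strand: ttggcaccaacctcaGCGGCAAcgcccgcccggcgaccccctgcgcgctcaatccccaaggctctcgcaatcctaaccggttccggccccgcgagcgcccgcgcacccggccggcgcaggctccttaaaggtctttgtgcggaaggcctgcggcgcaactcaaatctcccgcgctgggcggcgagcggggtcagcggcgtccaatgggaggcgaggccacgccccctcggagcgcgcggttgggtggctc
The first capital lay 138 bases before the start in Cdc6, 27 in Orc1, 227 in Chaf1b and 235 in Rrm2, and at 169, 138 and 121 bases in Pola1. Mcm6 (4) and Mcm5 (3) also held several motifs, while no match was found in these windows of Mcm10, Pcna, Pclaf or Tk1.

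Origin licensing had the widest swing of any function with more than 1 gene, with mean centred levels of 2.57 in ProE, 1.68 in CFUE, 1.23 in GMP and 1.05 in PreCFUE, against -1.99 in CD4. Cdc6, the loader of the Mcm ring printed above, varied most of all members. Its log2 level along the erythroid line was 7.15, 7.80, 7.98 and 7.80 in MkE, 9.85, 9.18 and 9.30 in PreCFUE, 10.23, 10.01 and 9.84 in CFUE, and 11.16, 10.93 and 11.02 in ProE. In CD4 it was 3.9 and 3.55. It was 4.85 and 6.59 in LTHSC and 6.73 and 4.68 in CLP, so that the arrays of each of these groups differed by more than the 2-fold call limit. PreCFUE and CFUE overlapped by a single array, and the CD4 arrays lay below every other array and under the filter level of 3.889 on average. Orc1, the largest subunit of the origin recognition complex, was 8.97, 8.46 and 8.58 in ProE, and outside PreCFUE, CFUE, ProE, GMP and GM no array exceeded 5.35. Orc6, a further subunit, ranged from 6.39 in CD4 to 10.22 in ProE and Gmnn from 8.08 in CD4 to 11.97 in ProE. Cdt1 departed in IgM+SP, where it was 11.78 and 11.87, above 10.57, 10.79, 11.33 and 11.33 in PreB. The arrays labelled ProB had the lowest Cdt1, 9.36 and 9.45.

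Of the 11 helicase genes, Mcm10, which helps to start unwinding, varied most. It was 9.93, 9.80 and 9.85 in ProE and 9.58, 9.44 and 9.42 in CFUE, against 6.16 and 6.84 in LTHSC and 4.77 and 3.98 in CD4. The ring subunits Mcm2, Mcm3, Mcm5 and Mcm7 kept to the common order with correlations of 0.84 to 0.91 with the remaining members. Mcm4 and Mcm6 did so less (0.72 and 0.77), and in PreB they ran against Mcm7. Mcm4 was 9.74 and 9.35 on PreB replicates 1 and 2 and 11.07 and 11.25 on replicates 3 and 4, and Mcm6 was 9.67 and 9.28, and 10.75 and 10.83. Mcm7 was 12.54 and 12.60 on replicates 1 and 2, and 11.69 on each of replicates 3 and 4. Cdc45 followed Mcm7 there, with 7.93 and 8.12, and 6.45 and 6.12. Among the GINS subunits, Gins1 ranged from 5.41 in CD4 to 10.32 in ProE and Gins2 from 5.12 in CD4 to 8.61 in CFUE. Gins4 was not low in CD4, at 7.72 and 7.68, and was lowest in CLP, at 4.93 and 5.95.

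Among polymerases and primase, Pola1, the catalytic subunit of polymerase alpha whose upstream bases held 3 E2F motifs, was 9.52, 9.70 and 9.54 in ProE and 9.27, 9.03 and 8.67 in GMP. It was 5.37 and 6.92 in LTHSC, 5.60 and 5.63 on the arrays labelled ProB and 5.14 and 4.74 in CD4. Pole, the catalytic subunit of polymerase epsilon, was 4.89 and 5.33 in CD4, while no other array was under 7.09. Primase subunit Prim1 was second highest in NKmature, at 10.27 and 10.29, against 10.46, 10.63 and 10.32 in ProE. Its partner Prim2 ranged from 6.02 in LTHSC to 9.63 in ProE. The polymerase delta subunits departed from the common order. Pold1, the catalytic one, was 10.57, 10.49 and 10.46 in PreCFUE and 9.94, 9.93 and 9.86 in ProE, and Pold2 was 9.39, 9.23 and 9.35 in CFUE and 8.58, 8.51 and 8.58 in ProE. Pold2 was also low in ETP (7.18, 6.88 and 6.75) and lowest in IgM+SP (5.97 and 6.44). Pold3 kept to it with a correlation of 0.92.

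In the clamp group Pcna was not low in LTHSC or CD4. It was 11.99, 12.44 and 12.12 in CFUE, 11.55 and 11.90 in LTHSC and 10.91 and 11.13 in CD4, and it was lowest in CLP at 9.41 and 9.38. LTHSC arrays thus lay above all GMP arrays (10.69, 10.76 and 10.66). Pclaf behaved otherwise: it was 11.02, 10.75, 10.11 and 9.94 in PreB, 10.05, 10.08 and 10.13 in ProE and 10.08 and 9.99 in NKmature, while LTHSC (4.70 and 6.35) and CD4 (5.97 and 6.53) lay below every other array. Of the clamp loader, Rfc4 ranged from 5.65 in LTHSC to 10.58 in ProE. Rfc2 was 10.18 and 10.36 in STHSC, 10.08 and 9.69 in LTHSC and 9.93, 9.74 and 9.99 in ProE. Rfc3 had its second highest mean in PreB, and Rfc1 its second highest in ETP, at 10.46, 10.11 and 10.29.

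The single-strand binding subunits were lowest in CLP, with a mean centred level of -1.35, and CD4 stood at -0.34. Rpa3, the smallest subunit, was 4.65 and 5.63 in CLP, below every other array, against 8.58, 8.73 and 8.63 in CFUE. Rpa2 was lowest there too, at 6.58 and 6.99. Rpa1, the largest subunit, was 12.51 and 12.57 in NKmature and 11.75 and 11.92 in CD4, next to 12.58, 12.71 and 12.58 in ProE, and was lowest in LTHSC at 10.54 and 10.32. Lig1, the ligase that seals Okazaki fragments, was 10.02, 10.02 and 10.19 in ProE and 7.42 and 6.74 in IgM+SP. In PreB it was 9.93 and 9.91 on replicates 1 and 2 and 8.22 and 8.23 on replicates 3 and 4. Fen1, which cuts the flaps before ligation, ranged from 9.95 in CD4 to 12.91 in ProE.

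Chaf1b, a subunit of the factor that places histones on new DNA, was 8.85, 8.53 and 8.84 in ProE, and LTHSC came second at 8.0 and 8.47, ahead of every array of LMPP, MkE, GMP and the lymphoid groups. It was 7.25 and 7.0 on PreB replicates 1 and 2, 5.24 and 5.13 on replicates 3 and 4, and 3.74 and 4.29 in IgM+SP. Of the nucleotide genes, Rrm2, the regulated subunit of ribonucleotide reductase, was 12.25, 12.42 and 12.18 in ProE and 11.42, 11.04, 11.93 and 11.95 in PreB. It was 5.68 and 8.15 in LTHSC and 7.34 and 6.88 in CD4. Its partner Rrm1 ranged from 7.46 in CD4 to 11.36 in ProE, and thymidine kinase Tk1 from 5.43 in CD4 to 9.97 in ProE. Dut, which removes dUTP, was 11.76, 12.01 and 11.76 in CFUE, and its ProE arrays lay lower at 11.35, 11.16 and 11.31. Thymidylate synthase Tyms was dim, over the filter level in 7 of 17 groups, and its 4 probe sets disagreed.

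Probe sets limit some of these readings. Of the 43 genes, 32 had several, and in 13 of them at least 1 other probe set had a correlation under 0.5 with the one used. For Pclaf the second brightest followed it with 0.67 and was also highest in PreB, while the third, which stayed between 3.20 and 4.39, did not (-0.11).

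**Figure D3:**
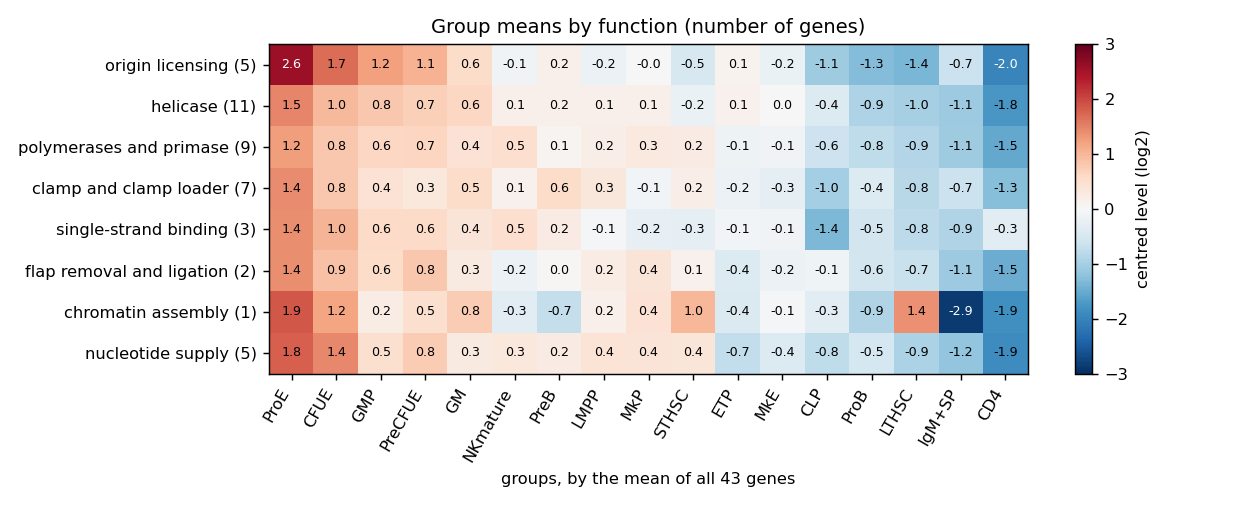
Mean centred log2 level by function (rows, with the number of genes) and group (columns, ordered by the mean of all 43 genes). Origin licensing spans 2.57 to -1.99, single-strand binding is lowest in CLP, and Chaf1b is high in LTHSC (1.36) and lowest in IgM+SP (-2.86).

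**Figure D4:**
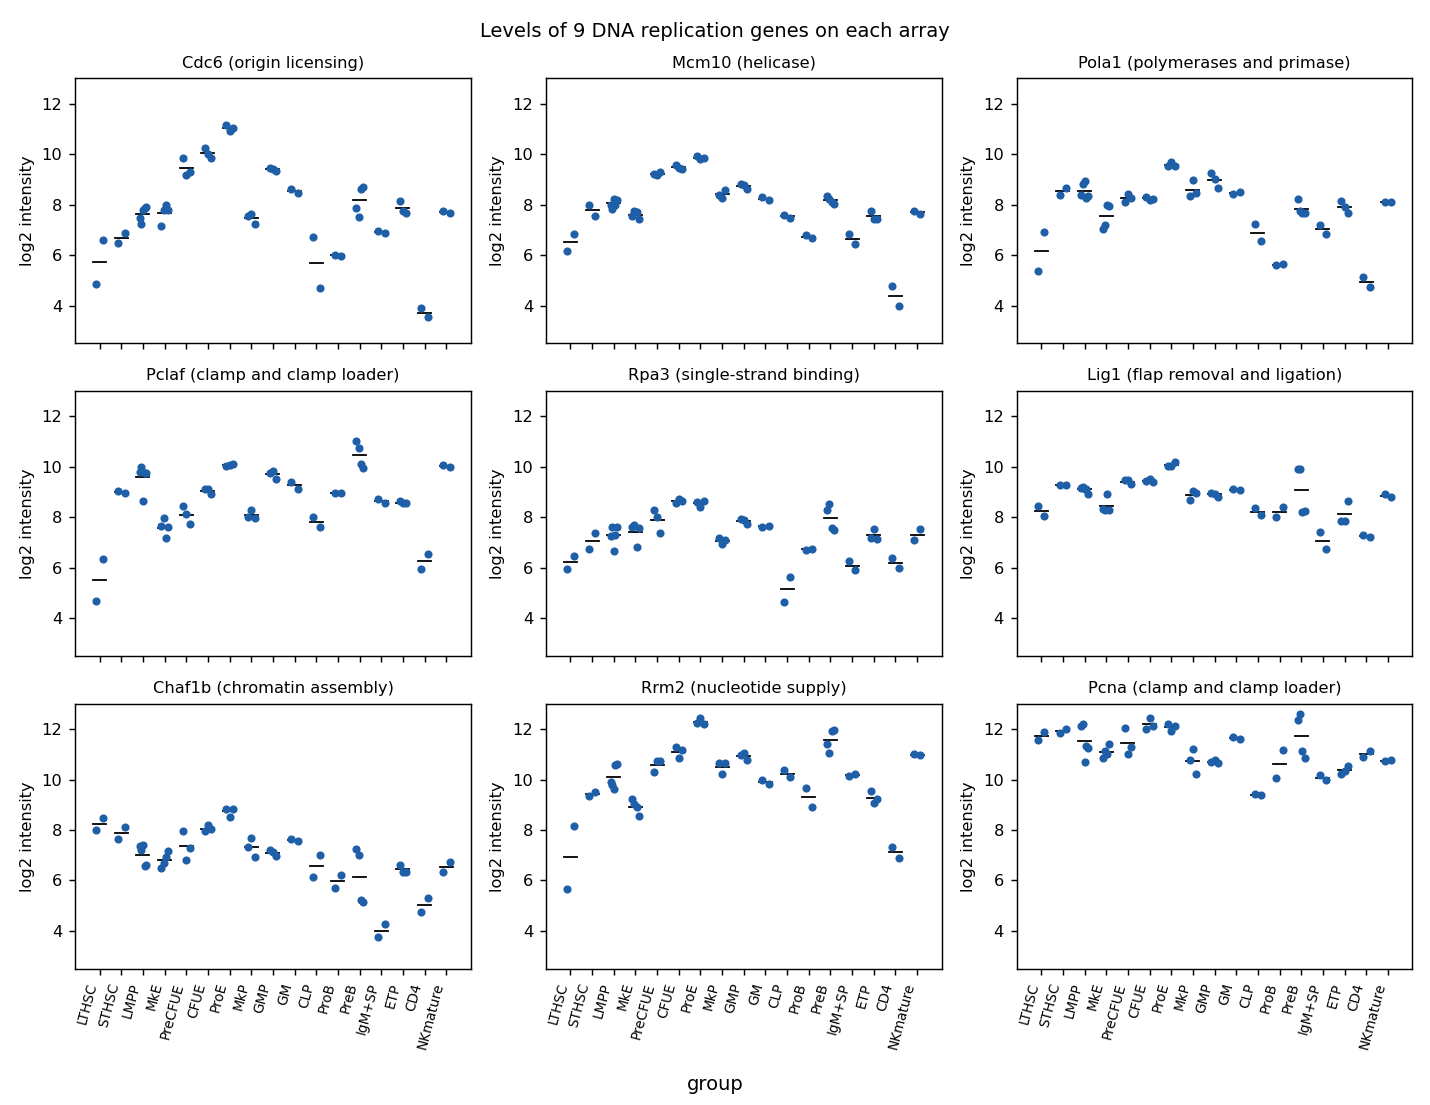
Log2 intensity on every array (points) with group means (lines) for the gene with the widest range in each function and for Pcna. All panels share 1 axis, but levels of different genes are not comparable. Cdc6 steps up from MkE to ProE, while Pcna shows no drop in LTHSC or CD4.

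Neighbouring stages were then compared in 16 pairs. A gene was called where the limma adjusted p (Benjamini-Hochberg over the 13949 genes of that comparison, two-sided) was under 0.05 and the difference at least 2-fold. Differences are log2, first group minus second, ± the standard error of the fit. Percentages of all genes refer to calls. Members at an unadjusted p under 0.05 are counted without that share, so these counts alone show no trait of the members. Many comparisons share a group, and results that share STHSC, MkE, LMPP or CLP are not independent.

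**Figure D5:**
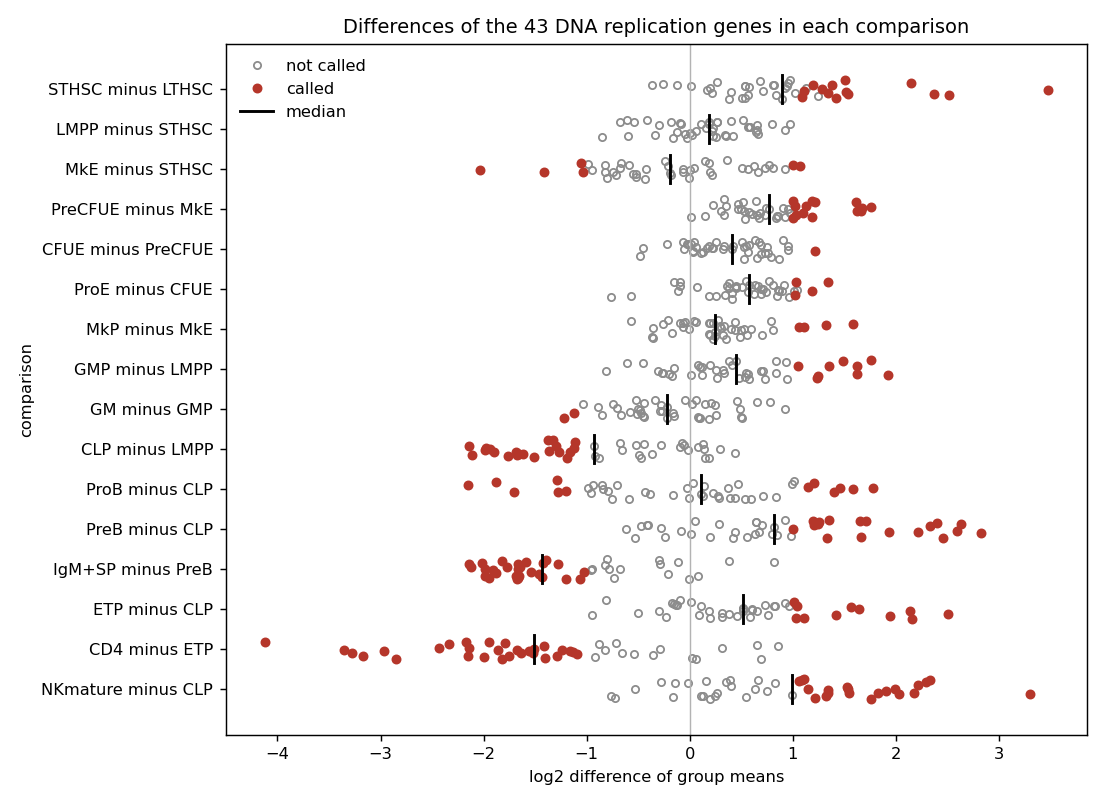
Log2 differences of the 43 genes in the 16 comparisons (first group minus second, horizontal axis), with called genes in red, others as open circles and the median as a bar. Medians run from -1.52 in CD4 minus ETP to 0.99 in NKmature minus CLP, and the circles of LMPP minus STHSC hold no called gene.

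Between STHSC and LTHSC, STHSC had 14 of 43 genes called higher and 0 called lower (2.06% of all genes tested were called higher and 4.75% lower), and 28 and 0 passed an unadjusted p under 0.05. The median difference was 0.90, against -0.13 over all genes. Polymerases and primase gave 5 of 9 calls, the helicase and the clamp group 3 each, nucleotide supply 2 and licensing 1. Pclaf was 9.04 and 8.97 in STHSC, against 4.70 and 6.35 in LTHSC (3.48 ± 0.36, adjusted p = 1.98e-08). Rrm2 was 9.36 and 9.52 in STHSC, against 5.68 and 8.15 in LTHSC (2.52 ± 0.41, 1.29 without LTHSC replicate 1). Pola1 (2.37 ± 0.33), Tk1 (2.15 ± 0.42) and Prim2 (1.53 ± 0.23) were also higher. Rfc4 (1.52 ± 0.31), Pole2 (1.5 ± 0.33) and Gmnn (1.42 ± 0.29) were next, and without LTHSC replicate 1 they stood at 1.01, 0.78 and 0.46 and were not called. Pcna (0.20 ± 0.43) and Chaf1b (-0.36 ± 0.45) were not called. Without LTHSC replicate 1, the array with the lower levels, 8 genes were called higher, and without replicate 2 there were 18. With these 4 arrays fitted alone none was called, and over all genes 1 was called higher and 2 lower. The calls thus rest on the spread estimated from all groups. All 4 arrays have Eif2s3y alone, so a fit within that class leaves the differences as they were, changes the spread alone and cannot check the class. It called 17 higher, against 336 higher and 777 lower over all genes.

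Between LMPP and STHSC, limma called 0 of 43 genes in either direction (3.92% of all genes were called higher and 1.5% lower), while 8 were higher and 2 lower at an unadjusted p under 0.05, and the median difference was 0.19. Leaving out LMPP replicate 2 gave 1 call. Other replication genes that passed were the nucleoside kinase Dck (1.13 ± 0.30), the GINS subunit Gins3 (1.10 ± 0.27) and the clamp unloader Atad5 (1.0 ± 0.28).

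In MkE, 2 genes were called higher and 4 lower than in STHSC, against 12.3% and 6.01% of all genes, with 10 and 13 at an unadjusted p under 0.05 and a median of -0.19. Tk1 was 6.60, 7.21, 7.39 and 7.33 in MkE, against 9.15 and 9.18 in STHSC (-2.03 ± 0.36, adjusted p = 3.48e-05), and Pclaf was 7.64, 7.96, 7.16 and 7.61 in MkE, against 9.04 and 8.97 in STHSC (-1.42 ± 0.31). Chaf1b and Pola2 were also lower and Cdc6 and Mcm4 higher, and each of these 4 lost its call without at least 4 of the 6 arrays in turn, with differences in those fits of -1.29 to -0.83 for Chaf1b, -1.21 to -0.86 for Pola2, 0.82 to 1.20 for Cdc6 and 0.84 to 1.3 for Mcm4. Quantile normalization gave 0 higher and 8 lower and median centring 2 and 2. Over all genes the first called 1327 higher and 1183 lower, the second 1902 and 750. Actb had a 3′ minus 5′ difference of 3.57 to 4.83 in MkE, against 1.88 to 2.16 in STHSC, and Gapdh had one of 3.08 to 4.27 in MkE, against 2.56 to 2.83 in STHSC; their part was not tested. Counts were 3 without MkE replicate 1 and 2 without MkE replicate 2.

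Along the erythroid line the genes had positive medians at each step. In PreCFUE, 14 of 43 were called higher than in MkE and 0 lower (2.87% and 4.44% of all genes), 32 and 0 at an unadjusted p under 0.05, and all 43 differences were above 0 with a median of 0.78. By function, 4 of 5 nucleotide genes, 3 of 5 licensing genes, 3 of 11 helicase genes and 2 of 9 polymerase and primase genes were called, with Rfc4 and Fen1. Cdc6 (1.76 ± 0.32, adjusted p = 0.000121) and Orc1 (1.68 ± 0.25) led licensing. Mcm10 was 9.21, 9.18 and 9.29 in PreCFUE, against 7.54, 7.74, 7.71 and 7.43 in MkE (1.62 ± 0.16, adjusted p = 1.07e-09). Rrm2 (1.66 ± 0.32), Tk1 (1.61 ± 0.32), Rfc4 (1.22 ± 0.23), Cdc45 (1.19 ± 0.34, 1.05 and not called without PreCFUE replicate 1) and Gmnn (1.19 ± 0.23) were higher too. Of 41 further replication genes tested, 11 were higher and 0 lower, among them the helicase Recql4 (2.24 ± 0.33) and the cohesin acetyltransferase Esco2 (1.69 ± 0.31). With the mean of all probe sets 9 members were called.

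From PreCFUE to CFUE the single call was Orc1, at 7.82, 7.85 and 7.46 in CFUE, against 7.13, 6.32 and 6.03 in PreCFUE (1.22 ± 0.27, adjusted p = 0.00271, 0.99 without PreCFUE replicate 3). That is 1 higher and 0 lower of 43, against 1.08% and 1.58% of all genes, with 14 and 1 at an unadjusted p under 0.05 and a median of 0.41. Leaving out PreCFUE replicate 1 gave 4 calls and leaving out replicate 3 gave 0. In ProE, 4 genes were called higher than in CFUE and 0 lower (1.78% and 2.84%), 27 and 1 at an unadjusted p under 0.05, with a median of 0.58. They were Pola1 at 9.52, 9.70 and 9.54 in ProE, against 8.31, 8.19 and 8.24 in CFUE (1.34 ± 0.27, adjusted p = 0.000791), Rrm2 (1.19 ± 0.34), Orc6 (1.03 ± 0.17) and Pclaf (1.02 ± 0.30). The calls of Rrm2 and Pclaf were lost in turn without 4 and 6 of the 6 arrays (1.06 to 1.22 and 0.96 to 1.07), and that of Orc6 without ProE replicate 1 (0.99). Leaving out CFUE replicate 3 gave 2 calls and ProE replicate 1 gave 1. Pold2 (-0.77 ± 0.33) and Dut (-0.57 ± 0.33) pointed down in ProE without passing. After quantile normalization 2 were called higher, against 231 higher and 302 lower over all genes.

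In MkP, 4 genes were called higher than in MkE and 0 lower (2.96% and 8.55% of all genes), 9 and 0 at an unadjusted p under 0.05. Of the 4, 3 supply nucleotides: Rrm2 at 10.67, 10.21 and 10.66 in MkP, against 9.21, 9.01, 8.90 and 8.57 in MkE (1.59 ± 0.32, adjusted p = 0.000227), Tyms (1.32 ± 0.24) and Tk1 (1.11 ± 0.32). Pola1 (1.06 ± 0.25) was the fourth. Tyms averaged 3.47 in MkE, under the filter level of 3.889, and its 4 probe sets disagreed. The other nucleotide genes, Rrm1 (0.34 ± 0.27) and Dut (-0.35 ± 0.31), were not called. Tk1 lost its call without MkE replicate 1 (0.93) or MkP replicate 2 (0.91), and Pola1 without MkE replicate 1 or 2 or MkP replicate 2 (0.88 to 0.94), and leaving out MkE replicate 1 or MkP replicate 2 left 2 calls. Quantile normalization gave 7 higher, against 727 higher and 639 lower over all genes.

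In GMP, 9 genes were called higher than in LMPP and 0 lower (10.6% and 6.24% of all genes), with 19 and 2 at an unadjusted p under 0.05 and a median of 0.45. Licensing gave 4 of its 5 genes: Orc1 was 6.57, 6.39 and 6.31 in GMP, against 4.80, 4.94, 4.23, 4.35 and 4.17 in LMPP (1.93 ± 0.24, adjusted p = 3.54e-08), and Cdc6 (1.76 ± 0.31), Gmnn (1.36 ± 0.21) and Orc6 (1.24 ± 0.15) were higher with it. Pole2 (1.62 ± 0.24), Rfc4 (1.62 ± 0.22), Gins1 (1.48 ± 0.20), Cdc45 (1.24 ± 0.33) and Rpa1 (1.05 ± 0.14, 0.96 to 0.99 without LMPP replicate 1 or 2) completed the calls. Pcna was 10.69, 10.76 and 10.66 in GMP, against 12.13, 12.20, 10.68, 11.32 and 11.23 in LMPP (-0.81 ± 0.31), under the 2-fold limit with an adjusted p of 0.0388, and was not called. With LMPP replicates 1 and 2 alone, which share the sex-linked class of GMP, 12 were higher and 2 lower, against 1812 higher and 1236 lower over all genes. The granulocyte-monocyte markers, 11 of 11 over the filter level in both groups, summed to 107.5 to 110.0 in GMP and 66.0 to 91.9 in LMPP. The Actb 3′ minus 5′ difference was 6.32 to 6.54 in GMP, against 1.9 to 3.93 in LMPP, and that of Gapdh 5.33 to 5.66 in GMP, against 2.38 to 3.42 in LMPP; their part was not tested.

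Between GM and GMP, 0 genes were called higher and 2 lower in GM (5% and 2.95% of all genes), 2 and 12 at an unadjusted p under 0.05, with a median of -0.22. Cdc45 was 6.61 and 6.30 in GM, against 7.92, 7.69 and 7.44 in GMP (-1.22 ± 0.41, adjusted p = 0.0438), and Gmnn was 10.27 and 10.07 in GM, against 11.43, 11.36 and 11.10 in GMP (-1.12 ± 0.27). Cdc45 lost its call without any 1 of the 5 arrays (-1.38 to -1.07) and Gmnn without GM replicate 2 (-1.02), so counts were 0 or 1 when an array was left out. Actb had a 3′ minus 5′ difference of 3.1 to 3.41 in GM, against 6.32 to 6.54 in GMP, and Gapdh had one of 2.64 to 3.1 in GM, against 5.33 to 5.66 in GMP; their part was not tested.

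The lymphoid comparisons start from CLP, in which 0 genes were called higher and 21 of 43 lower than in LMPP (3.14% and 18.1% of all genes), with 0 and 27 at an unadjusted p under 0.05 and a median of -0.93, against -0.10 over all genes. The clamp group gave 6 of 7, single-strand binding 2 of 3, nucleotide supply 3 of 5, polymerases and primase 4 of 9, the helicase 4 of 11 and licensing 2 of 5. Rpa3 was 4.65 and 5.63 in CLP, against 7.24, 7.60, 6.67, 7.29 and 7.61 in LMPP (-2.14 ± 0.28, adjusted p = 1.46e-07). Pcna (-2.11 ± 0.36), Dut (-1.98 ± 0.33), Rfc4 (-1.98 ± 0.26), Cdc6 (-1.94 ± 0.35, -0.91 and not called without CLP replicate 2), Tk1 (-1.90 ± 0.35) Pclaf (-1.77 ± 0.30) and Cdc45 (-1.69 ± 0.37, -1.06 and not called without CLP replicate 2) were lower as well. Of the 6 Mcm ring genes, Mcm3 was called (-1.19 ± 0.24, -0.94 without CLP replicate 2). Of the further replication genes 21 of 41 were lower and 1 higher, among them Dscc1 (-2.67 ± 0.28) of an alternative clamp loader and Dbf4 (-2.54 ± 0.24), the activator of the Cdc7 kinase. The low upper quartile of the CLP arrays touches each comparison with CLP: quantile normalization left 13 calls, 0 of them higher, with a median of -0.62. That setting called 1137 of all genes higher and 1846 lower. Within the arrays with Eif2s3y alone 23 were lower, against 690 higher and 2950 lower over all genes. The Actb 3′ minus 5′ difference was 5.14 to 5.31 in CLP, against 1.9 to 3.93 in LMPP, and that of Gapdh 4.34 to 5.12 in CLP, against 2.38 to 3.42 in LMPP; their part was not tested.

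In PreB, 18 genes were called higher than in CLP and 0 lower (25% and 10.5% of all genes), with 28 and 1 at an unadjusted p under 0.05 and a median of 0.82. Rpa3 (2.83 ± 0.29, adjusted p = 2.27e-10), Pclaf (2.63 ± 0.31), Rfc4 (2.60 ± 0.27), Cdc6 (2.46 ± 0.37, 1.44 without CLP replicate 2), Cdc45 (2.40 ± 0.39), Pcna (2.33 ± 0.37), Rfc3 (2.22 ± 0.38) and Gins4 (1.93 ± 0.35) led. Pcna was 12.34, 12.61, 11.13 and 10.85 in PreB, against 9.41 and 9.38 in CLP. With PreB replicates 1 and 2 alone 24 were higher and 2 lower, and with replicates 3 and 4 alone, which share the sex-linked class of CLP, 13 were higher and 1 lower. Over all genes the first of these fits called 3975 higher and 1646 lower, and the second 3205 and 1540. After quantile normalization the split was 8 higher and 6 lower, with a median of 0.14, so the size of the rise depends on the scaling. That setting called 2272 of all genes higher and 2336 lower. The Gapdh 3′ minus 5′ difference was 2.79 to 4.22 in PreB, against 4.34 to 5.12 in CLP, and the part of it and of the markers of the PreB arrays in these calls was not tested.

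In IgM+SP, 0 genes were called higher and 28 of 43 lower than in PreB (3.4% and 9.43% of all genes), with 1 and 35 at an unadjusted p under 0.05 and a median of -1.44. Every function gave calls: 7 of 11 helicase genes, 5 of 9 polymerase and primase genes, 5 of 7 clamp genes, 4 of 5 nucleotide genes, 3 of 5 licensing genes, 2 of 3 single-strand binding genes, Lig1 and Chaf1b. Chaf1b was 3.74 and 4.29 in IgM+SP, against 7.25, 7.0, 5.24 and 5.13 in PreB (-2.14 ± 0.39, adjusted p = 0.0001). Gins2 (-2.12 ± 0.35), Dut (-2.01 ± 0.34), Lig1 (-1.99 ± 0.31), Gins1 (-1.99 ± 0.23), Cdc45 (-1.95 ± 0.39), Tk1 (-1.91 ± 0.36) and Rpa3 (-1.88 ± 0.29) were next. Cdt1, the loader that stayed high in IgM+SP, differed by 0.82 ± 0.19 with an adjusted p of 0.00146, under the 2-fold limit, and was not called. Against PreB replicates 1 and 2 alone 30 were lower and 1 higher, and against replicates 3 and 4, which share the sex-linked class of IgM+SP, 19 were lower. Over all genes the first of these fits called 2537 lower and 1008 higher, and the second 620 and 285. With these 6 arrays fitted alone 7 were called lower, against 108 higher and 193 lower over all genes. Granulocyte-monocyte markers, 11 of 11 over the filter level in both groups, summed to 90.5 to 105.1 in IgM+SP and 51.2 to 95.4 in PreB. Actb had a 3′ minus 5′ difference of 6.18 to 6.53 in IgM+SP, against 1.59 to 6.11 in PreB, and Gapdh had one of 4.41 to 4.6 in IgM+SP, against 2.79 to 4.22 in PreB; the part of markers and differences was not tested.

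The arrays labelled ProB differed from CLP in both directions, with 6 genes called higher and 6 lower (21.9% and 7.59% of all genes), 10 and 14 at an unadjusted p under 0.05, and a median of 0.11. Lower were Mcm4, at 9.38 and 7.96 on the arrays labelled ProB, against 11.62 and 10.03 in CLP (-2.16 ± 0.47, -1.36 without CLP replicate 1), Cdt1 (-1.88 ± 0.22, adjusted p = 7.35e-09), Mcm6 (-1.71 ± 0.36, -1.08 without replicate 2 of the arrays labelled ProB), Pola1 (-1.28 ± 0.33, -0.95 and not called without CLP replicate 1), Pole (-1.28 ± 0.34, -0.78 and not called without CLP replicate 2) and Mcm2 (-1.20 ± 0.25). Higher were Gins4 (1.78 ± 0.41), Rpa3 (1.58 ± 0.33), Pold2 (1.46 ± 0.40, 1.02 and not called without CLP replicate 2), Tk1 (1.40 ± 0.42, 1.20 and not called without replicate 2 of the arrays labelled ProB), Pcna (1.21 ± 0.43) and Pclaf (1.15 ± 0.36, 0.94 without CLP replicate 2). Pcna lost its call without either CLP array or without replicate 2 of the arrays labelled ProB (0.65). The split was 2 higher and 16 lower after quantile normalization, against 2191 higher and 1991 lower over all genes. A fit of these 4 arrays alone called 7. The Actb 3′ minus 5′ difference was 1.84 to 3.31 on the arrays labelled ProB, against 5.14 to 5.31 in CLP, and that of Gapdh 2.49 to 4.09 on the arrays labelled ProB, against 4.34 to 5.12 in CLP. NK and T lineage markers moved with these values as given above. The part of either was not tested.

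In ETP, 11 genes were called higher than in CLP and 0 lower (22% and 7.16% of all genes), with 20 and 3 at an unadjusted p under 0.05 and a median of 0.52. Rfc4 was 8.5, 8.66 and 8.34 in ETP, against 6.04 and 5.95 in CLP (2.51 ± 0.28, adjusted p = 5.77e-09). Rpa3 (2.15 ± 0.30), Cdc6 (2.14 ± 0.39, 1.12 without CLP replicate 2), Pole2 (1.95 ± 0.30), Orc6 (1.65 ± 0.19), Gins4 (1.57 ± 0.37, 1.06 and not called without CLP replicate 1) and Gmnn (1.42 ± 0.27) followed. The split was 6 higher and 3 lower after quantile normalization, with a median of -0.01, so the direction of the group as a whole rests on the scaling. That setting called 1914 of all genes higher and 1853 lower. ETP replicate 1 alone against CLP, within the arrays with Eif2s3y alone, gave 9 higher, with its spread taken from the other groups. The T lineage markers summed to 32.9 to 34.2 in ETP and 33.5 to 34.2 in CLP. Actb had a 3′ minus 5′ difference of 5.99 to 6.17 in ETP, against 5.14 to 5.31 in CLP, and its part was not tested.

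The lowest median of the 16 comparisons was that of CD4 against ETP. In CD4, 0 genes were called higher and 29 of 43 lower than in ETP (13.9% and 12.5% of all genes), 1 and 34 at an unadjusted p under 0.05, with a median of -1.52, against 0 over all genes. The helicase gave 10 of 11, licensing 4 of 5 and polymerases and primase 6 of 9. Cdc6 was 3.9 and 3.55 in CD4, against 8.13, 7.73 and 7.68 in ETP (-4.12 ± 0.39, adjusted p = 3.79e-11). Gins1 (-3.36 ± 0.24), Pole (-3.28 ± 0.31), Mcm10 (-3.17 ± 0.20), Pola1 (-2.97 ± 0.30), Mcm6 (-2.85 ± 0.33), Rfc4 (-2.43 ± 0.28) and Pclaf (-2.33 ± 0.33) were next. Within the same groups Pcna (0.65 ± 0.39), Gins4 (0.69 ± 0.37) and Rpa1 (0.31 ± 0.18) pointed up and Pold2 (0.85 ± 0.36) too, and none of these 4 was called. Of the further replication genes, 15 of 41 were lower and 3 higher, led by the nuclease Dna2 (-4.40 ± 0.23), Dscc1 (-3.70 ± 0.30) and Uhrf1 (-3.68 ± 0.25), which brings the maintenance methyltransferase to new DNA. The T lineage markers, 8 of 8 named over the filter level in CD4, summed to 83.0 to 84.4 there, against 32.9 to 34.2 in ETP. The Actb 3′ minus 5′ difference was 1.04 to 1.24 in CD4, against 5.99 to 6.17 in ETP, and Gapdh had one of 2.48 to 2.54 in CD4, against 3.98 to 4.58 in ETP; their part was not tested.

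In NKmature, 21 genes were called higher than in CLP and 0 lower (29.1% and 12.1% of all genes), with 25 and 3 at an unadjusted p under 0.05 and a median of 0.99. Rfc4 was 9.33 and 9.25 in NKmature, against 6.04 and 5.95 in CLP (3.30 ± 0.31, adjusted p = 3.18e-11). Tk1 (2.33 ± 0.42), Gins4 (2.29 ± 0.41), Pclaf (2.21 ± 0.36, -0.08 with the mean of its probe sets), Rpa3 (2.17 ± 0.33), Pole2 (2.03 ± 0.33), Cdc6 (1.99 ± 0.42, 0.97 and not called without CLP replicate 2) and Prim1 (1.91 ± 0.28) were next. All 3 single-strand binding genes and 6 of 9 polymerase and primase genes were among the calls. After quantile normalization 10 were higher and 3 lower, with a median of 0.30, and the median gene itself shifted by -0.26. That setting called 2549 of all genes higher and 2535 lower. Without CLP replicate 2, 14 were called. Granulocyte-monocyte markers summed to 94.3 to 95.4 in NKmature, with 11 of 11 over the filter level, and to 65.7 to 68.1 in CLP, with 10 of 11. Actb had a 3′ minus 5′ difference of 2.73 to 2.89 in NKmature, against 5.14 to 5.31 in CLP, and Gapdh had one of 3.25 to 3.27 in NKmature, against 4.34 to 5.12 in CLP; the part of markers and differences was not tested.

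Further replication genes and E2F and pocket protein genes gave a similar order of groups, mitosis genes less so, and brake genes did not. The mean of 41 further replication genes followed that of the 43 across the 17 groups with a Pearson correlation of 0.96, that of 13 E2F and pocket protein genes with 0.95, that of 19 mitosis genes with 0.89 and that of 8 genes that brake the cell cycle with -0.53. Among single further genes, the checkpoint adaptor Clspn was 9.21 in ProE and 2.99 in CD4 and Dna2 10.35 in ProE and 4.12 in CD4, and E2f8 was 11.34 in ProE and 4.82 in CD4. Some further genes ran otherwise: Samhd1, which breaks down dNTPs, was highest in CD4 (11.24), and the small reductase subunit Rrm2b, known from its induction by p53, was highest in PreB (10.63), as was Top2a (11.37). Over all other tested genes, the 10 whose 17 group means followed the mean of the 43 most closely were Cenpk (0.968), Cenph, Anln, Psmc3ip, Zwilch, Kntc1, Lrr1, Ticrr, Oip5 and Fignl1 (0.946), each highest in ProE and lowest in CD4. Those most opposite were Slc23a2 and Ezh1 (-0.846 each).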

How the data were processed

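Each of the 47 arrays was deposited as 1 column of linear intensity for 45101 probe sets; the authors' series text says that RNA went through dual amplification and that the intensity values were made by RMA, which corrects background, normalizes between arrays and summarises probes. The software and its version were not given in the sources used here. Medians of the arrays ran from 13.8 to 16.9, and array number, not read depth, limits precision.

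Log2 of the deposited intensity was used with a pseudocount of 0. Of the probe sets, 34958 had 1 gene symbol, 932 had several and were not named, and the rest were unlisted in the platform annotation used. The brightest probe set stood for a gene, and a gene was tested where the mean of any group exceeded 3.889, the median of the whole log2 table. One limma model (version 3.58.1, R 4.3.3) with a mean for each of the 17 groups (30 residual degrees of freedom) gave all 16 comparisons. On simulated data of 13949 genes it recovered 77% to 94% of genes changed by 1.5 (log2) and 98% to 100% of those changed by 3. The simulated noise was independent between arrays, with the same spread in every group for a given gene. Shifts of whole arrays and unequal spread between groups were thus left out, and recovery in the real data may be lower.

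The member genes, the further lists and the comparisons were chosen with earlier results of these data known. Named with values are, per comparison, the 2 to 8 called members with the largest absolute differences and those called against the majority; per array, the gene with the widest range in each function and Pcna; and up to 4 called genes of each further list. Other genes, array values and uncalled members were singled out after their values were seen. Thresholds of the sex-linked classes and the split of PreB were also set after seeing the data. Alternatives were quantile normalization, median centring, a floor of 16, the mean of all probe sets, no or a stricter dim filter (5.968), no fold minimum, the compared arrays alone, the replicate number or the sex-linked class as a block, and leaving out each array.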

Additional observations from a re-analysis of the deposited data

Results flagged for a closer look

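Of 132 tests for a single stray array in groups of 4 or 5 arrays, 7 passed Dixon's limit, where chance flags about 1 in 20. LMPP replicate 3 was low for Pclaf, at 8.66, while the others lay between 9.74 and 10.01, and for Rrm1, at 9.51, while the others lay between 9.99 and 10.16. MkE replicate 3 was high for Mcm7, at 12.45, against 11.97 to 12.05 on the others, and for Lig1, at 8.93, against 8.28 to 8.34, and low for Rpa3, at 6.83, against 7.58 to 7.69. In PreB, Orc6 was 7.97 on replicate 2, against 8.34 to 8.36 on the others, and Pola1 was 8.21 on replicate 1, against 7.66 to 7.73.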

How the results depend on the processing

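Of 194 called differences, 123 kept their call whichever array of the pair was left out, and all 43 genes differed among groups under every leave-one-out fit. Left-out arrays moved the number of calls to 8 to 18 for STHSC minus LTHSC, 0 to 1 for LMPP minus STHSC and for GM minus GMP, 2 to 7 for MkE minus STHSC, 0 to 4 for CFUE minus PreCFUE, 1 to 5 for ProE minus CFUE and 2 to 4 for MkP minus MkE. Without a fold minimum, calls were 2 for CFUE minus PreCFUE and for LMPP minus STHSC, 5 for GM minus GMP, 9 for MkP minus MkE, 14 for ProE minus CFUE, 17 for MkE minus STHSC, 19 for GMP minus LMPP, 20 for ETP minus CLP, 21 for the arrays labelled ProB minus CLP, 26 for PreCFUE minus MkE and 28 for PreB minus CLP. Counts in this section come without the share of all genes under each setting, so they alone show no trait of the members. Quantile normalization gave 13 for CLP minus LMPP and for NKmature minus CLP, 7 for MkP minus MkE and 2 for ProE minus CFUE, and 144 of the 194 differences kept their call. Scaling moved the median of all genes by over 0.1 in comparisons with CLP and in MkP minus MkE, from -0.26 (quantile, NKmature minus CLP) to 0.24 (centring, PreB minus CLP). The mean of all probe sets gave 7 for STHSC minus LTHSC, for ETP minus CLP and for the arrays labelled ProB minus CLP, 9 for PreCFUE minus MkE and 2 for MkP minus MkE, and turned Pclaf in NKmature minus CLP to -0.08. With it 133 of the 194 differences kept their call, and 60 kept their direction but lost their call. The sex-linked class as a block gave 17 for ETP minus CLP and for GM minus GMP and 22 for MkE minus STHSC and for ProE minus CFUE, and turned Pcna, Pold2 and Tk1 on the arrays labelled ProB to -0.27, -0.09 and -0.42. Apart from ETP minus CLP, the groups of these comparisons share no class, and arrays with Xist alone and with Eif2s3y alone meet within PreB only, where they also differ in markers and 3′ minus 5′ values, so these block values say nothing of the class or the groups. Within the arrays with Eif2s3y alone GMP minus LMPP gave 14. The compared arrays alone gave 7 for IgM+SP minus PreB and for the arrays labelled ProB minus CLP and 0 for STHSC minus LTHSC, with fewer arrays behind the spread. A floor of 16, median centring and no dim filter each gave 1 for GM minus GMP. For the other changes the cause was not tested. With the replicate number as a block, calls fell to 2 for MkE minus STHSC and 187 of 194 differences kept their call. In comparisons with 3 pairs, correlations of the deviations of same-numbered arrays from their group means ran from -0.38 to 0.24. With 2 pairs they reached 0.38 (STHSC minus LTHSC). Such deviations cancel within a group, so these values cannot decide whether same-numbered arrays were paired.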

Other observations

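Genes of mitosis and genes that brake the cell cycle, centred like the replication genes, gave values that stood apart from them in some groups. The 19 mitosis genes averaged 1.82 in ProE and -2.69 in CD4, as the ends of the replication order do, but also 0.98 in LMPP, 1.15 in PreB and 0.63 in STHSC, while GM stood at -0.07. The 43 replication genes averaged 0.18 in LMPP, 0.20 in PreB, 0.03 in STHSC and 0.50 in GM. The 8 brake genes averaged 1.89 in PreB and 1.15 in IgM+SP, against -1.49 in PreCFUE and -1.64 in CFUE. These differences between lists were not tested.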
